A study of Mus musculus with 6 samples.

Results

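The netrin, Slit and ephrin guidance genes are the ligands and receptors of the netrin, Slit-Robo and Eph-ephrin systems. They were chosen by gene symbol alone: Eph receptors, ephrins, Slit1 to Slit3, Robo1 to Robo4, the netrins and netrin-Gs, the UNC5 receptors, Dcc and Neo1. The rule found 41 genes among the 24391 rows of each table. These families were picked from the transcriptome with the differences between AVP and control in these same libraries already known. Every AVP minus control value below is therefore a description of these genes, and the calls count as no independent evidence that guidance genes respond. GT1-7 is an immortalised mouse hypothalamic cell line that serves as a model of neurons making gonadotropin-releasing hormone (GnRH), and the labels give its genotype as wild type. Cultures grown in 10% serum were deprived of serum for 12 h. Then 3 cultures received the peptide hormone arginine vasopressin (AVP) at 200 pg/mL for 6 h and 3 received vehicle, which another label calls untreated. All 6 are cultures of the same line, so the p-values measure the spread between cultures and no other line or animal was sampled.

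Growing axons and migrating neurons read these cues at the membrane. Netrins are secreted relatives of laminin that attract through DCC and can repel through UNC5 receptors, while neogenin, encoded by Neo1, is a relative of DCC that also binds repulsive guidance molecules. Netrin-Gs are tethered to the membrane and bind a separate set of adhesion proteins. Slits are large secreted proteins that repel cells carrying Robo receptors. Eph receptors are tyrosine kinases that bind ephrins on neighbouring cells; ephrin-As hang on a lipid anchor, whereas ephrin-Bs cross the membrane and can signal backwards into their own cell. In the embryo, GnRH neurons migrate from the nose into the forebrain, and netrin signalling through DCC helps to steer them in mice.

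The promoters of 4 receptor genes are shown because they belong to the genes with the 3 highest rises, Unc5c, Robo3 and Unc5b, and to Unc5a, the UNC5 paralog that was not called. Each runs from 250 bases before to 50 after the RefSeq start on GRCm38.p6, 5′ to 3′ along the gene. The Unc5b window is chr10:60831532-60831831 on the minus strand, that of Unc5c chr3:141465314-141465613 on the plus strand, that of Robo3 chr9:37433126-37433425 on the minus strand and that of Unc5a chr13:54949161-54949460 on the plus strand. Capitals mark matches to the motifs named after the sequences.
Unc5b: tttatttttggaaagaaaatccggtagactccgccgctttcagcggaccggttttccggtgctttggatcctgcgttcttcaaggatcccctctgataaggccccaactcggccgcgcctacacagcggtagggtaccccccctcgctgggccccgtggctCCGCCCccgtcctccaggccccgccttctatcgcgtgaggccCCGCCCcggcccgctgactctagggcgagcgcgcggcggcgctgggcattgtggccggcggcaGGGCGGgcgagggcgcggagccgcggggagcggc
Unc5c: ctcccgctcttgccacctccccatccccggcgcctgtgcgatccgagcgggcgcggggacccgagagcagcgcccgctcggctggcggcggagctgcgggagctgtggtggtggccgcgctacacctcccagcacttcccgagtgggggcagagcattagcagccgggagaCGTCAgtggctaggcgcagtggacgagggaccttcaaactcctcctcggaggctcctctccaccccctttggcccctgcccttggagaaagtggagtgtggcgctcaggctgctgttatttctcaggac
Robo3: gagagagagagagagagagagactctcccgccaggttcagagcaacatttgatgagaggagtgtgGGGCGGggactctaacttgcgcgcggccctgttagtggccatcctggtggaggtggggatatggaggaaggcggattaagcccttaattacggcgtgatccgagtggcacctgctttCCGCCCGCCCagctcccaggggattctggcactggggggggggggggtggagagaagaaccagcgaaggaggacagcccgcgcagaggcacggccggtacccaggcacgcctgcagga
Unc5a: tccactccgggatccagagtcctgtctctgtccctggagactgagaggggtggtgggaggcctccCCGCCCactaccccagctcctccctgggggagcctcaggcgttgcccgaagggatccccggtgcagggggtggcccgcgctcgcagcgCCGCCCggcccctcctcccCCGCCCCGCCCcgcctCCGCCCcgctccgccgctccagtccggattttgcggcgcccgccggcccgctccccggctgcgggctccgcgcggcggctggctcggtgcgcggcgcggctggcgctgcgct

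The search covered both strands and kept overlapping matches. The GC box, bound by SP-family factors, was spelled GGGCGG. The TATA box of the core promoter was spelled TATAAA. A part of the cAMP response element, the site of CREB, was spelled TGACG, and the whole element was not searched. The palindromic SMAD box was spelled GTCTAGAC. The site of AP-1, the Fos and Jun dimer, was spelled TGANTCA. The element searched for the stress factor ATF4 was spelled TGATGNAA. The E-box of clock factors was spelled CACGTG. Unc5b held 3 GC boxes, Robo3 held 3 and Unc5a held 5, whereas Unc5c held none. Unc5c was the only promoter of these 4 with a TGACG match, in reverse orientation. RefSeq promoters matched 36 of the 41 genes, some with several starts, giving 41 windows. A GC box lay in 28 of the 41 windows (68.3%) against 35.7% of all 32851 promoters, and the median GC content was 64.7% against 52.7%. A TGACG match lay in 7 of the 41 windows (17.1%) against 20.8% of all promoters. A match describes letters and shows no bound factor.

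RNA sequencing gave 34908867 to 37418318 counts per library. Levels are given as CPM, a gene's counts per 1000000 counts of the library after its size was adjusted by edgeR's TMM factor. Against unadjusted library totals, 3 counts correspond to 0.0802 to 0.0859 CPM. Each AVP library had more detected genes (16674 to 16739 against 16166 to 16403) and more of the nuclear RNA Malat1 (1499 to 1725 against 499 to 1106 CPM) than any control library, Malat1 per unadjusted total (exact two-sided permutation p = 0.1 for each, the smallest that 3 against 3 allows). Control replicate 1 held 0.995% of its counts on the ribosomal RNA precursor Rn45s, against 0.139 to 0.245% elsewhere. How far these measures take part in the values below was not tested. Leaving out control replicate 1, the library with the high Rn45s share, changed no call of a guidance gene. Detected genes and Malat1 separated the groups in every library, so leaving out 1 library cannot bear on them. Neuronal markers were abundant (2257 to 2504 CPM summed over 10 genes), with 5 of 9 tested genes higher and 1 lower. Over all tested genes, 28.7% were higher and 28.8% lower. Syp had the highest counts of this list, 31118 to 37040 in control and 25999 to 27367 in AVP libraries. Stmn2 had 1 count in AVP replicate 3 and 0 elsewhere. Labels give 1 batch for all libraries. The GnRH neuron list summed to 76.2 to 94.8 CPM in control and 165 to 185 CPM in AVP libraries, with 2 of 5 tested genes higher. Nearly all of that sum was Isl1, at 2614 to 3162 counts in control and 5510 to 6306 in AVP libraries. Dlx2 had 34 to 50 counts in control and 331 to 390 in AVP libraries, and Kiss1r 54 to 80 and 71 to 85. Gnrh1 had 11 to 26 counts in control and 11 to 21 in AVP libraries, Six6 9 to 17 and 2 to 11, and Dlx5 was at 0. The oligodendrocyte list summed to 68.1 to 75.2 CPM in control and 31.5 to 33.1 CPM in AVP libraries, with 3 of 3 tested markers lower, while its defining markers Mog and Mag were at 0 in all 6 libraries. Fibroblast and mural markers summed to 20.4 to 24.3 and 8.64 to 10.0 CPM, with Col3a1 at 0 and 2 of 2 tested markers lower. Nearly all of that sum was Pdgfra, at 420 to 618 and 163 to 179 counts, and Col1a2, at 260 to 290 and 154 to 180. Markers too low to test included Dcn, at 0 to 2 and 4 to 10 counts, and Acta2, at 0 to 4 and 3 to 7. Col1a1 had 0 to 5 and 0 to 1, and Pdgfrb 0 and 0 to 8. Endothelial markers summed to 303 to 332 and 245 to 276 CPM, nearly all from Kdr, with 1 of 4 tested markers lower and Cldn5 at 0. Astrocyte markers summed to 1.05 to 1.24 CPM in control and 1.71 to 2.35 CPM in AVP libraries without overlap. Most of that sum was Aldh1l1, at 34 to 36 counts in control and 42 to 66 in AVP libraries. It was the only astrocyte marker tested and was not called. Gfap had 2 counts in each control and 5 to 19 in AVP libraries. Aqp4 had 2 to 3 counts in control and 0 to 3 in AVP libraries, and Gja1 had 0 to 2 in both groups. Slc1a3 had 5 counts in AVP replicate 2 and 0 elsewhere. Microglial markers summed to 0.115 to 0.360 and 0.0834 to 0.190 CPM, with C1qa at 0.

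Of the 41 genes, 32 had enough counts to be tested and 9 did not. Genes are said to rise or fall where the edgeR quasi-likelihood test, adjusted over all 14163 tested genes, gave an adjusted p under 0.05. By that rule 14 of the 32 rose (43.8%, against 28.7% of all tested genes) and 4 fell (12.5%, against 28.8%). Together 18 of 32 were called (56.3%, against 57.5%), so the share called was near that of the whole transcriptome. At least 2-fold rises numbered 8 (25.0%, against 5.2%) and 2-fold falls 1 (3.13%, against 4.79%). The 14 rises and the 8 rises of at least 2-fold both include Epha8, which passed the count filter through the AVP libraries. At a mean of at least 50 counts they were 13 and 7. The 8 were also 7 without control replicate 3, where Efna2 had a log2 fold change of 0.96. The median log2 fold change was 0.18, against 0.01 over all tested genes. AVP and control values did not overlap for 18 of the 32 (56.3%, against 63.4%). Less RNA per cell and fewer cells carrying an RNA cannot be told apart in such bulk libraries.

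**Figure D1:**
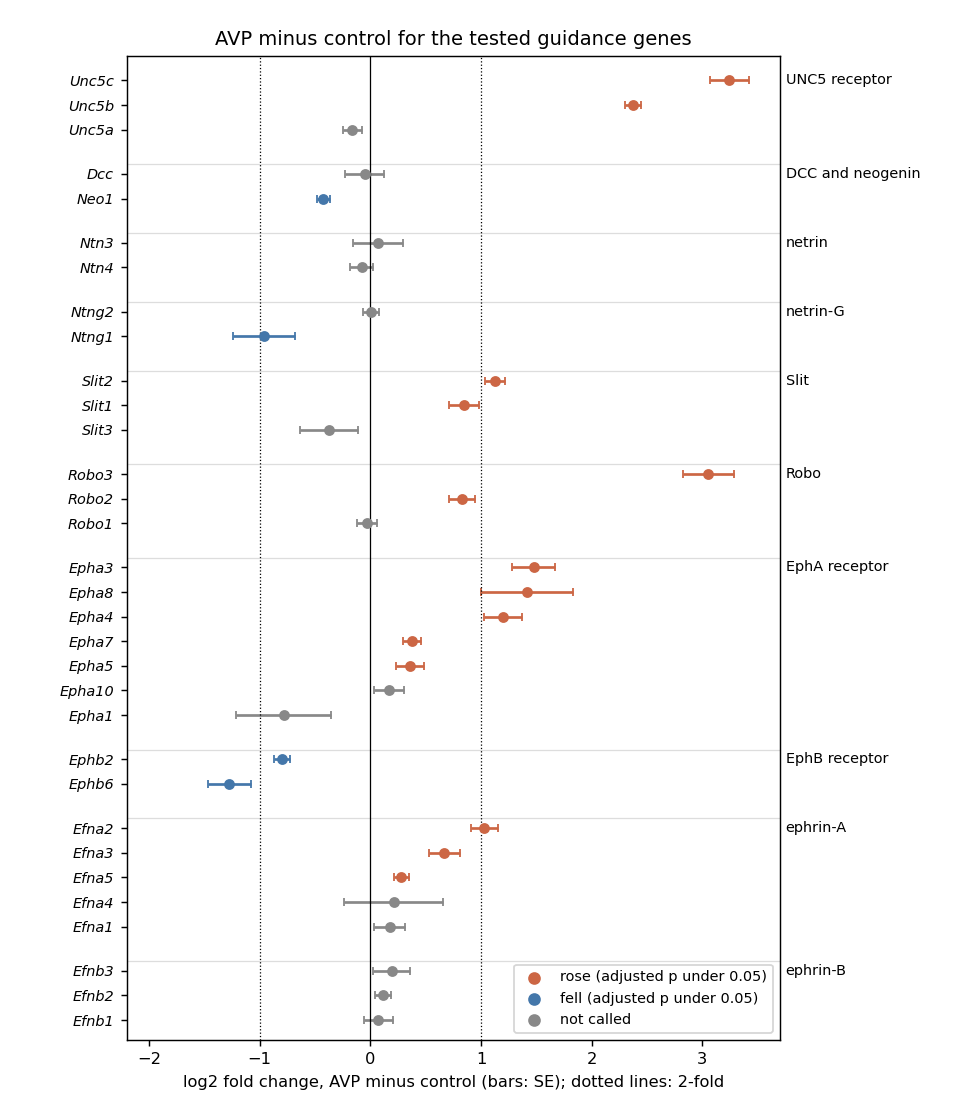
Log2 fold change, AVP minus control, with its SE for the 32 tested guidance genes, grouped by family; colour gives the call and dotted lines mark 2-fold. UNC5 receptors Unc5c and Unc5b and the Robo family member Robo3 lie farthest right, and both tested EphB receptors lie to the left of 0, Ephb6 past 2-fold.

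The netrin receptors held the highest rise of all 41 genes. Unc5c (GRCm38 chromosome 3, 141465216 to 141834924, plus strand), a netrin receptor of the repulsive type, read 1.55, 1.69 and 2.05 CPM in control replicates 1, 2 and 3 and 20.3, 16.3 and 13.5 CPM in AVP replicates 1, 2 and 3. The groups lay far apart, and the AVP libraries spread more widely than the controls. The difference was 9.47-fold (log2 fold change 3.24, SE 0.18, adjusted p = 6.17e-10), the 72nd in size among the 14163 tested genes. Unc5b (chromosome 10, 60762593 to 60831581, minus strand), whose product binds netrin and can trigger death of cells that lack the ligand, read 17.2, 15.0 and 16.6 CPM in control and 86.2, 83.5 and 83.4 CPM in AVP libraries. Replicates were tight in both groups, and the gene rose 5.18-fold (log2 fold change 2.37, SE 0.07, adjusted p = 9.76e-13).

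Unc5a, another receptor of this family, read 49.3, 46.1 and 41.2 CPM in control and 36.0, 43.8 and 42.2 CPM in AVP libraries. The groups overlapped and the log2 fold change of -0.16 (SE 0.09) was not called (adjusted p = 0.126), although it was without control replicate 3 (adjusted p = 0.0247). Unc5d had 1 count in 6 libraries. Per kb of exon, the scale on which levels of different genes can be compared, Unc5a made up 80.1 ± 1.81% of UNC5 transcript in control libraries (SD, n = 3) and 40.4 ± 3.15% in AVP libraries. Unc5b went from 19.2 ± 1.70% to 56.0 ± 2.44% and Unc5c from 0.683 ± 0.150% to 3.63 ± 0.812%. The most abundant UNC5 transcript was thus Unc5a in each control library and Unc5b in each AVP library. The summed UNC5 level was 13.6 ± 1.01 CPM per kb in control and 24.1 ± 0.626 CPM per kb with AVP. With the longest transcript as the length, the Unc5c shares were 1.29% and 6.60%, since the annotated exons of Unc5c cover 19.1 kb and its longest transcript 9.65 kb.

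Of the DCC family, which mediates attraction to netrin, neither gene rose. Neo1, the neogenin gene (chromosome 9, 58874687 to 59036441, minus strand), read 220, 212 and 201 CPM in control and 151, 169 and 152 CPM in AVP libraries. Every AVP library lay below every control, and the gene fell 1.34-fold (log2 fold change -0.42, SE 0.06, adjusted p = 1.37e-05). Dcc read 4.95, 5.71 and 4.47 CPM in control and 3.92, 4.97 and 5.72 CPM in AVP libraries. The groups overlapped fully and Dcc was not called (log2 fold change -0.05, SE 0.18, adjusted p = 0.821). Neo1 had the highest level per kb of exon of all 41 genes in both groups, 24.2 CPM per kb in control and 18.0 CPM per kb with AVP, and made up 98.4 ± 0.171% and 98.0 ± 0.378% of the Dcc and Neo1 transcript.

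None of the secreted netrin ligands was called, and Ntn4 was the only one above rank 25 of the 41 genes by level per kb of exon in control. Ntn1, the classical floor plate netrin, had 4, 0 and 4 counts in control and 20, 9 and 6 counts in AVP libraries and was below the filter. Its count ratio was 4.31 (95% interval 1.97 to 10.8, counting error only), and no test was made. The interval pools the cultures and leaves out the spread between them. Ntn4, a netrin found in basement membranes, read 15.5 to 18.0 CPM in control and 14.3 to 17.7 CPM in AVP libraries (log2 fold change -0.08, SE 0.11). Ntn3 read 1.77 to 1.85 and 1.80 to 2.09 CPM (log2 fold change 0.07, SE 0.23), and its exons share 89 bases with Tbc1d24 on the same strand. Tbc1d24 had 1374 mean counts in control and 2768 in AVP libraries. How far Tbc1d24 reads enter the Ntn3 counts was not tested. Ntn5 had 15 counts over the control and 9 over the AVP libraries, and 23.4% of its exon length overlaps Sec1 on the opposite strand.

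Of the netrin-Gs, Ntng2 had the second highest level per kb of the 41 genes in both groups and read 64.7, 75.1 and 74.2 CPM in control and 65.3, 74.6 and 74.8 CPM in AVP libraries. The groups overlapped, with a log2 fold change of 0.00 (SE 0.07, adjusted p = 0.961). A processed transcript, 6530402F18Rik, shares 14.0% of its exon length on the same strand, with 1812 mean counts in control and 3260 in AVP libraries, so the reads could not be assigned between them. Ntng1, whose product binds that of Lrrc4c, read 1.88, 3.15 and 2.39 CPM in control and 1.47, 1.48 and 0.861 CPM in AVP libraries. It fell by 0.96 on the log2 scale (SE 0.28, adjusted p = 0.00808), a call that was lost without control replicate 2 (adjusted p = 0.0612).

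**Figure D2:**
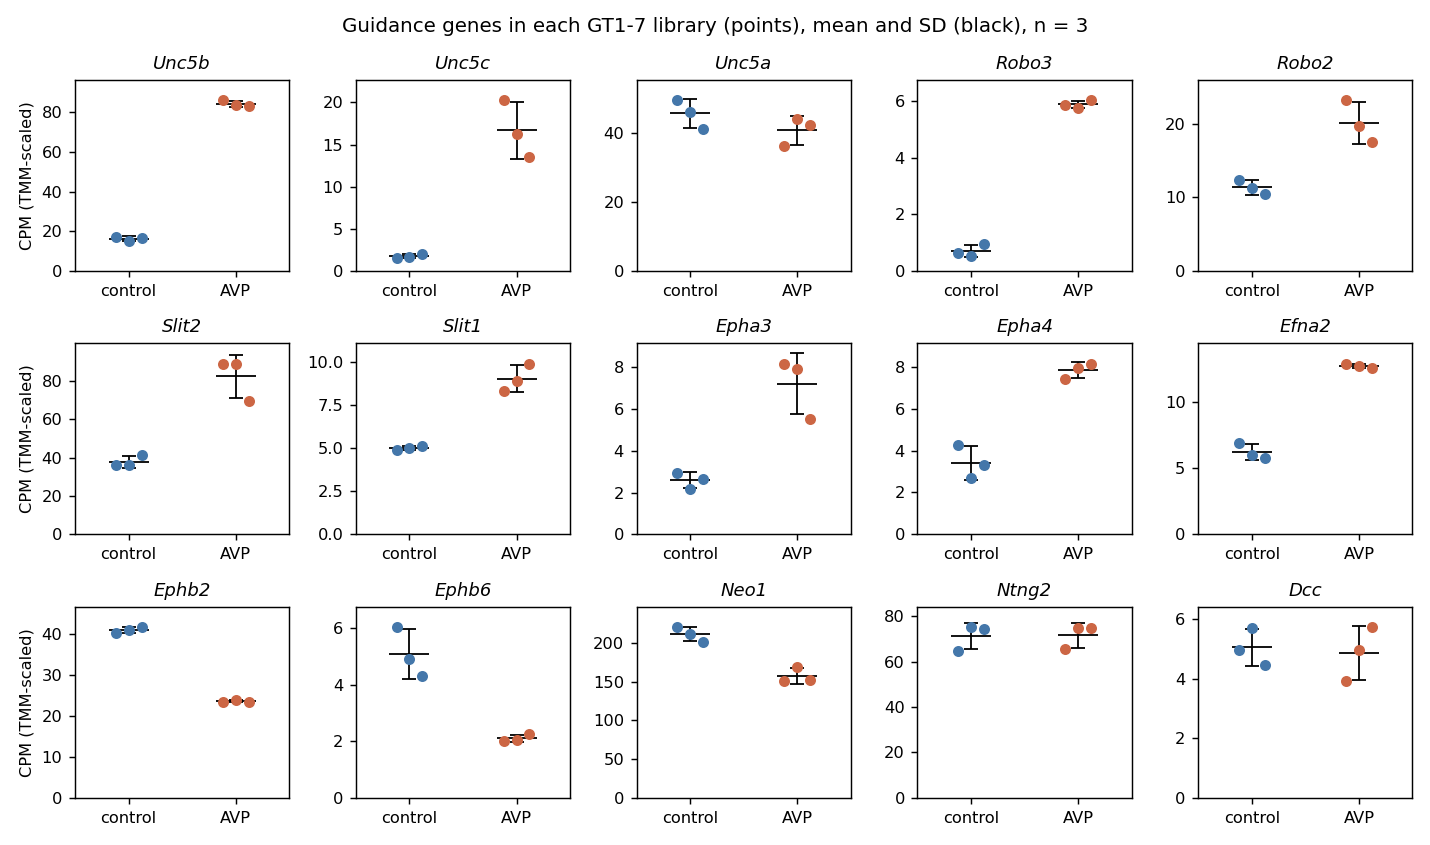
CPM of 15 guidance genes in each library (points, 3 control and 3 AVP), with the group mean and SD in black and each vertical axis starting at 0. Unc5b, Unc5c, Robo3 and Slit2 show gaps between the groups wider than either group's spread, Ephb2, Ephb6 and Neo1 show the opposite order, and Dcc, Ntng2 and Unc5a overlap.

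In the Slit-Robo system, 2 of 3 tested Slits and 2 of 3 tested Robo genes rose, against 28.7% of all tested genes. The share called was 66.7% in each family, against 57.5% of all tested genes. Slit2 (chromosome 5, 47983138 to 48307733, plus strand), the Slit with the highest level here, read 36.0, 36.3 and 41.2 CPM in control and 89.0, 88.9 and 69.5 CPM in AVP libraries. AVP replicate 3 was lower than the other AVP libraries but above every control. Slit2 rose 2.18-fold (log2 fold change 1.13, SE 0.09, adjusted p = 1.67e-07). Slit1, a Slit of the nervous system, read 4.89, 5.01 and 5.13 CPM in control and 8.30, 8.91 and 9.89 CPM in AVP libraries, a 1.80-fold rise (log2 fold change 0.85, SE 0.13, adjusted p = 5.99e-05). Slit3 read 1.29 to 2.16 CPM in control and 1.31 to 1.53 CPM in AVP libraries and was not called (log2 fold change -0.37, SE 0.27).

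Robo3 (chromosome 9, 37415669 to 37433246, minus strand), a divergent Robo that lets commissural axons cross the midline and in mammals binds Slits poorly, read 0.636, 0.535 and 0.952 CPM in control and 5.85, 5.76 and 6.03 CPM in AVP libraries. These rest on 19 to 33 reads counted per control library and 215 to 218 per AVP library. This 8.29-fold rise (log2 fold change 3.05, SE 0.23, adjusted p = 2.27e-08) ranked 88th in size among all tested genes. Robo2, a main Slit receptor of neurons, read 12.4, 11.2 and 10.4 CPM in control and 23.2, 19.6 and 17.6 CPM in AVP libraries and rose 1.77-fold (log2 fold change 0.83, SE 0.12, adjusted p = 2.22e-05). Robo1, the other main Slit receptor, read 19.6 to 21.0 CPM in control and 19.1 to 20.4 CPM in AVP libraries. It was not called (log2 fold change -0.03, SE 0.09, adjusted p = 0.791). Robo4, the endothelial Robo, had 0 counts in 5 libraries and 3 in AVP replicate 3.

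Per kb of exon, Robo3 went from 5.15 ± 1.53% of the Robo transcript in control to 26.4 ± 1.94% in AVP libraries, and Robo1 from 61.5 ± 2.09% to 37.1 ± 1.16% (SD, n = 3). Robo2 held 33.4 ± 3.01% and 36.3 ± 3.00%. The Slits summed to 2.63 ± 0.165 CPM per kb in control and 5.00 ± 0.334 CPM per kb with AVP, and the Robo receptors to 2.00 ± 0.0270 and 3.26 ± 0.188 CPM per kb. With the longest transcript as the length, the Slit sums were 5.03 and 10.1 CPM per kb, the Robo sums 4.15 and 6.16 CPM per kb and the Robo3 shares 3.40% and 19.2%. The Slit2 share was 56.5% in control and 64.7% with AVP, or 75.5% and 81.5% with the longest transcript, because annotated Slit2 exons cover 25.4 kb and its longest transcript 9.96 kb.

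**Figure D3:**
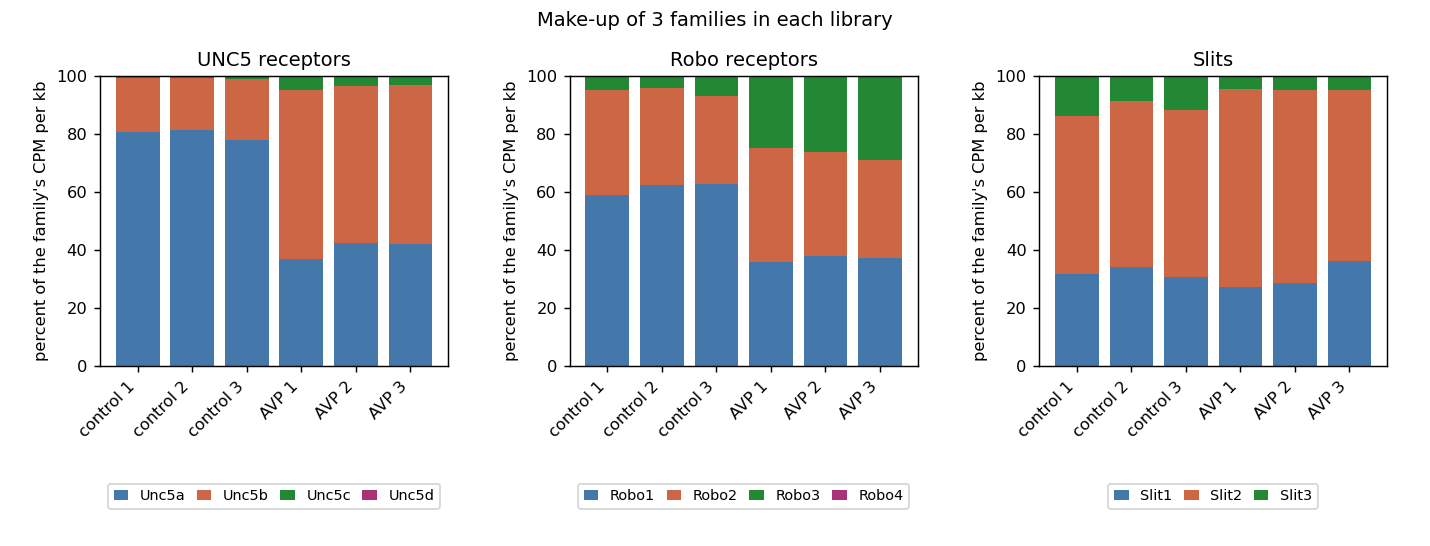
Percent of each family's summed CPM per kb of exon held by each gene in each library, for UNC5 receptors, Robo receptors and Slits. Unc5b replaces Unc5a as the larger share in the 3 AVP libraries (56.0% on average against 19.2% in control), and Robo3 widens from 5.15% to 26.4%.

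Among EphA receptors, which mostly bind ephrin-As, 5 of 7 tested genes rose and none fell. Of all tested genes 28.7% rose and 28.8% fell. The share called was 71.4%, against 57.5% of all tested genes. The 5 include Epha8, which reached the count filter through the AVP libraries. They also include Epha5, whose groups overlapped and whose call was lost in some fits that left out 1 library. Epha3 read 2.93, 2.19 and 2.65 CPM in control and 8.16, 7.93 and 5.53 CPM in AVP libraries and rose 2.78-fold (log2 fold change 1.47, SE 0.19, adjusted p = 7.71e-06). Epha4, which binds ephrins of both classes, read 4.26, 2.67 and 3.32 CPM in control and 7.40, 7.96 and 8.14 CPM in AVP libraries. Its groups did not overlap and it rose 2.29-fold (log2 fold change 1.20, SE 0.17, adjusted p = 2.40e-05). Epha7, the EphA receptor with the highest level, read 28.1 to 29.6 CPM in control and 34.3 to 39.3 CPM in AVP libraries, a smaller rise of 1.30-fold (log2 fold change 0.38, SE 0.08, adjusted p = 0.00077).

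Epha5 had overlapping groups, 15.3, 11.7 and 13.9 CPM in control against 18.6, 19.1 and 14.8 CPM with AVP. Its rise (log2 fold change 0.36, SE 0.12, adjusted p = 0.0217) was lost without control replicate 2 (adjusted p = 0.123), AVP replicate 1 (0.0789) or AVP replicate 2 (0.101). Epha8 had 8, 9 and 12 counts in control and 28, 26 and 27 in AVP libraries, and rose by 1.41 on the log2 scale (SE 0.41, adjusted p = 0.00838). It reached the count filter through the AVP libraries, with 1 control library over it, so the filter favoured a higher value with AVP. Epha1 reached it through the control libraries, with 21, 22 and 22 counts against 13, 8 and 18, and was not called (log2 fold change -0.78, SE 0.43, adjusted p = 0.133). Zyx on the opposite strand overlaps 6.01% of the Epha1 exon length, with 6949 mean counts in control and 5418 in AVP libraries. How far Zyx reads enter the Epha1 counts was not tested. Epha10, a receptor without kinase activity, was not called (6.29 to 7.60 CPM in control and 7.54 to 8.81 CPM with AVP). Epha2 had 0 counts in control and 2 in each AVP library, and Epha6 had 3 counts in AVP replicate 1 and 0 elsewhere, both at or under the floor.

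Both tested EphB receptors fell, against 28.8% of all tested genes. Ephb2 (chromosome 4, 136647539 to 136835988, minus strand), a receptor for ephrin-Bs at synapses and growth cones, read 40.5, 41.2 and 41.8 CPM in control and 23.6, 23.9 and 23.5 CPM in AVP libraries. The groups lay far apart and the gene fell 1.74-fold (log2 fold change -0.80, SE 0.07, adjusted p = 2.25e-07). Ephb6, which lacks kinase activity, read 6.03, 4.90 and 4.30 CPM in control and 2.01, 2.04 and 2.25 CPM in AVP libraries, a 2.42-fold fall (log2 fold change -1.27, SE 0.19, adjusted p = 4.01e-05). No other guidance gene fell by 2-fold, although the count was 2 when control 1, AVP 1 or AVP 2 was left out. Ephb1 and Ephb3 were at 0 counts throughout, a limit of 0.0279 CPM over the control libraries and 0.0275 CPM with AVP, and Ephb4 had 3 counts over the control and 1 over the AVP libraries. Summed per kb, EphA receptors stood at 5.64 ± 0.334 CPM per kb in control and 7.98 ± 0.405 CPM per kb with AVP, and EphB receptors at 4.61 ± 0.184 and 2.44 ± 0.0324 CPM per kb (SD, n = 3).

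Among the ephrins, 3 of 5 ephrin-As rose and none of the 3 ephrin-Bs was called. The share of ephrin-As called was 60%, near the 57.5% of all tested genes, of which 28.7% rose. Efna2 (chromosome 10, 80179482 to 80190010, plus strand) read 6.89, 6.02 and 5.74 CPM in control and 12.9, 12.7 and 12.5 CPM in AVP libraries and rose 2.04-fold (log2 fold change 1.03, SE 0.12, adjusted p = 2.84e-06). Efna3 read 5.17, 4.53 and 4.33 CPM in control and 6.94, 7.80 and 7.58 CPM in AVP libraries, a 1.59-fold rise (log2 fold change 0.67, SE 0.14, adjusted p = 0.000916), and 14.1% of its exon length overlaps the antisense gene Gm15998, not counted in these tables. Efna5, the ephrin with the highest level per kb here, read 49.5 to 50.8 CPM in control and 56.3 to 63.7 CPM in AVP libraries and rose 1.21-fold (log2 fold change 0.28, SE 0.07, adjusted p = 0.00212).

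The other ephrin-As were not called. Efna1 read 5.74 to 7.16 CPM in control and 7.13 to 7.78 CPM in AVP libraries (log2 fold change 0.17, SE 0.14), and Efna4 had 12 to 45 counts per library (log2 fold change 0.21, SE 0.45). Leaving out 1 library moved the Efna4 value from -0.13 without control replicate 3 to 0.89 without control replicate 1, with no call. The antisense gene 4731419I09Rik, which is not among the counted genes, overlaps 10.5% of the Efna4 exon length. Of the ephrin-Bs, Efnb2, the ligand with the highest level of its class, read 33.8 to 36.7 CPM in control and 36.6 to 39.5 CPM in AVP libraries (log2 fold change 0.11, SE 0.07, adjusted p = 0.198). Efnb1 had a log2 fold change of 0.07 (SE 0.13). Efnb3 had 0.19 (SE 0.17, adjusted p = 0.359), and it was called without control replicate 3 (adjusted p = 0.0471). A p above the threshold does not show that these 5 genes were the same in both groups.

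Neighbouring genes of these families were compared by call. Efna1, Efna3 and Efna4 lie within 52.3 kb of each other on chromosome 3 in GRCm38, and only the middle gene, Efna3, was called. Robo3 and Robo4 lie 0.55 kb apart on chromosome 9 on opposite strands, Robo3 at up to 218 counts per library and Robo4 at up to 3. Ephb2 and Epha8 lie 93.4 kb apart on chromosome 4, the former lower with AVP and the latter higher. Robo1 and Robo2 lie 846 kb apart on chromosome 16, and Robo2 alone was called. Ephb6 and Epha1 lie 738 kb apart on chromosome 6, both with AVP values below every control value, and Ephb6 alone was called.

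Set in order by level per kb of exon, Neo1, Ntng2 and Efna5 held ranks 1, 2 and 3 in both groups. Unc5a was at rank 4 in control (10.9 CPM per kb) and rank 5 with AVP (9.75 CPM per kb), while Unc5b moved from rank 12 (2.60 CPM per kb) to rank 4 (13.5 CPM per kb). Unc5c moved from rank 31 to 22 and Robo3 from 30 to 23. Their levels of 0.87 and 0.86 CPM per kb with AVP stayed well under those of Unc5a and Unc5b. Ephb6 moved from rank 16 to 25 and Ephb2 from 8 to 15. Neo1 and Ntng2 exchange ranks 1 and 2 when the longest transcript is the length, and 17 of 41 genes keep the same rank under both lengths in control, with shifts of at most 6 ranks. Neighbours in the middle of the order, such as Efna2 at 2.92, Epha7 at 2.90 and Efnb3 at 2.82 CPM per kb in control, differed by less than their spread.

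**Figure D4:**
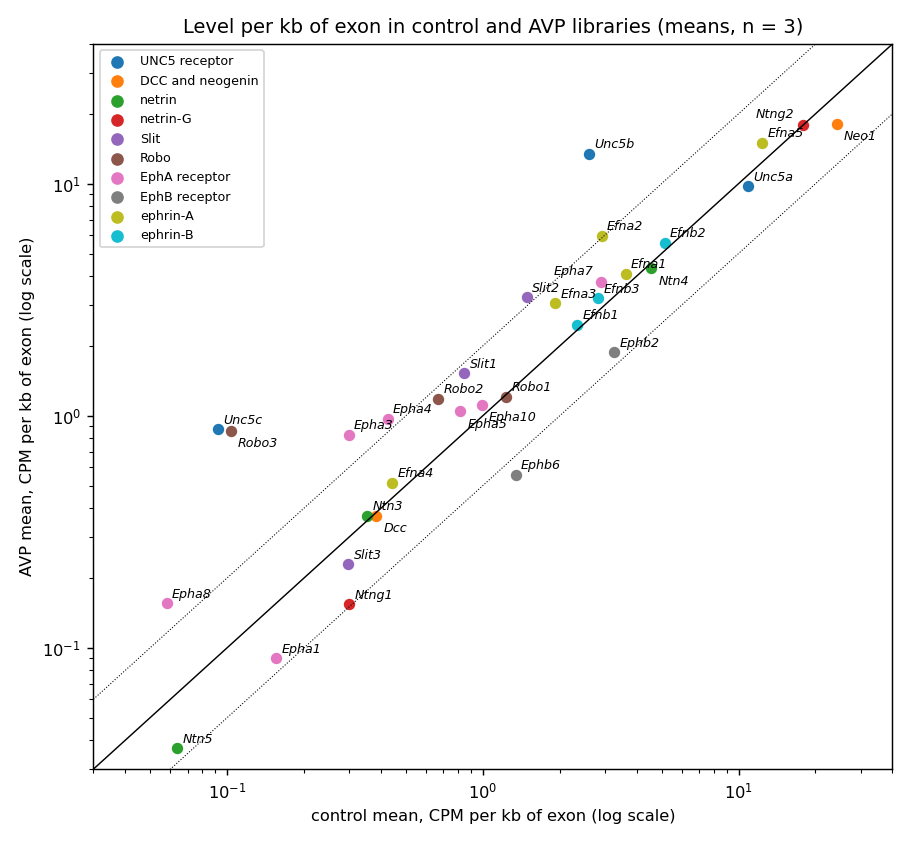
Mean CPM per kb of exon in AVP libraries against control libraries (n = 3 each, both axes logarithmic) for the 33 guidance genes above 0.02 CPM per kb in both groups; the solid line marks equal levels and the dotted lines 2-fold. Unc5b, Unc5c and Robo3 stand well above the upper dotted line, and Ephb6 lies below the lower one.

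Among the 25 listed partners of the netrin receptors, 13 rose and 5 fell (52% and 20%, against 28.7% and 28.8% of all tested genes; median log2 fold change 0.25, against 0.01). Dapk1, a death-associated kinase that binds UNC5B, rose from 7.85 ± 0.83 to 31.3 ± 1.59 CPM (SD over 3 cultures), a log2 fold change of 1.99 with an SE of 0.10, and Ablim1, an actin-binding protein, from 5.25 ± 0.66 to 21.1 ± 1.00 CPM (2.01, SE 0.12). Dscaml1, an adhesion molecule related to DSCAM, rose from 25.8 ± 1.56 to 60.3 ± 1.94 CPM. The falls were led by kinases that act below DCC: Fyn fell from 187 ± 7.03 to 100 ± 1.25 CPM, Src by 0.42 and Ptk2, focal adhesion kinase, by 0.33 on the log2 scale. Lrrc4, which encodes the adhesion partner of netrin-G2 and is named here after its values were seen, rose from 1.54 ± 0.70 to 7.71 ± 1.27 CPM (a log2 difference of 2.33 with SE 0.27, adjusted p = 8.63e-06).

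Of 19 tested Slit and Robo partners, 6 rose and 7 fell (31.6% and 36.8%, against 28.7% and 28.8% of all tested genes; median log2 fold change -0.03). Cxcl12, a chemokine whose signal Slits can dampen, fell from 125 ± 3.62 to 31.9 ± 0.86 CPM (a log2 difference of -1.97 with SE 0.06). Nell2, a secreted ligand of ROBO3, fell from 548 ± 17.5 to 343 ± 10.7 CPM (-0.67, SE 0.05), opposite to its receptor gene. Vasp, an actin regulator, fell by 0.55. Srgap3, a Slit-Robo GTPase-activating protein, rose from 15.0 ± 0.30 to 26.6 ± 0.67 CPM (0.83, SE 0.09), and Sdc1, a heparan sulphate proteoglycan, rose by 0.42 on the log2 scale. The 6 rises were 4 without control replicate 2 or AVP replicate 2.

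Of 22 tested Eph and ephrin effectors, 10 rose and 3 fell (45.5% and 13.6%, against 28.7% and 28.8% of all tested genes). The median log2 fold change was 0.14. Together 59.1% were called, near the 57.5% of all tested genes. Grip1, a scaffold that binds the tail of ephrin-Bs, rose from 3.24 ± 0.29 to 8.13 ± 1.05 CPM (1.33, SE 0.16), Kalrn from 5.05 ± 0.26 to 10.4 ± 0.55 CPM (1.04, SE 0.13), and Cbl, a ubiquitin ligase, from 16.5 ± 0.60 to 30.5 ± 4.26 CPM. Rgs3, Itsn1 and Anks1, an ephrin-B partner, an exchange factor and an EphA adaptor, fell by 0.48, 0.32 and 0.19.

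**Figure D5:**
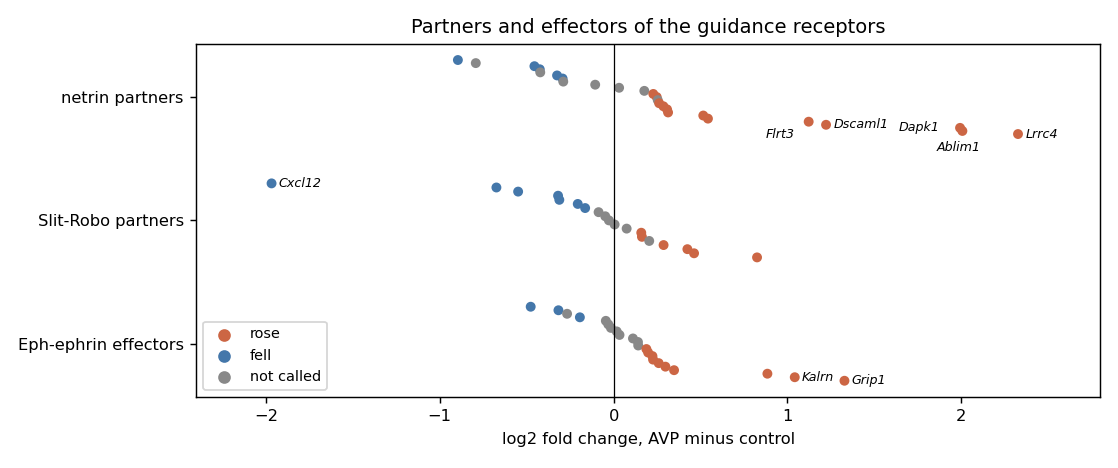
Log2 fold change, AVP minus control, of the tested partners and effectors, 1 row per list and 1 point per gene, coloured by call, with called genes past 2-fold named. Netrin partners reach furthest right (Lrrc4 at 2.33), and Cxcl12 at -1.97 is furthest left.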

How the data were processed

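The authors deposited a table of whole-number counts for each culture, keyed by gene symbol. Per the submitters' processing notes, mm10 and GRCm38 were the builds. Aligner, counter and use of strand: not given in the sources used here, so reads in overlapping exons cannot be assigned. Members and lists were chosen with earlier results of these data known.

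The counts were analysed with edgeR 4.0.16 in R 4.3.3: filterByExpr (minimum count 10), TMM factors, robust quasi-likelihood F test of AVP against control over all 6 libraries, and Benjamini-Hochberg adjustment at 0.05. CPM is TMM-scaled, except for Malat1 and floors, which use total counts. Each SE was the size of the log2 fold change over √F. Level per kb divides CPM by the union of exons in GENCODE M21 (GRCm38). Promoters came from RefSeq. The test recovered known changes when tested on simulated data.

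Named genes were every member, and from each list up to 3 called genes with the smallest p in each direction. Some results these rules name are not reported here. Promoters are printed for the genes with the 3 highest rises and Unc5a. No 2 libraries of a group agreed within sampling noise (chi-square per degree of freedom 7.17 or more). DESeq2 1.42.0, other scalings and filters, a replicate block and leaving out each library were tried.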

Additional observations from a re-analysis of the deposited data

How the results depend on the processing

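Across 12 alternatives, 28 of 32 tested genes kept the same call wherever they were fitted, and no call reversed. The 14 rises and 4 falls were 14 and 4 with RLE factors, library size alone, DESeq2 and no filter, and 13 and 4 at a mean of at least 50 counts. Leaving out 1 library gave 13 to 15 rises and 3 to 5 falls; the exceptions were Epha5, Ntng1, Unc5a and Efnb3. Genes that fell at least 2-fold numbered 1 to 2 when 1 library was left out, and were 2 when the library left out was control 1, AVP 1 or AVP 2. With the longest transcript as length the Unc5c share was 1.29% in control and 6.60% with AVP. Library size alone shifted the median of all tested genes to 0.04.

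The replicate block gave 14 rises and 4 falls. Deviations of same-numbered libraries correlated at 0.05, -0.11 and 0.00. Control replicate 1 correlated best with its own number, and control replicates 2 and 3 with another number. The labels give no pairing, and correlations this low cannot decide whether same-numbered libraries were paired. Low counts, at most 45 per library for Epha1, Epha8, Efna4 and Ntn1, limit precision.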
